A study of Homo sapiens with 8 samples.

Results

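The family of miR-130, miR-301 and miR-454 is a group of miRNAs whose 3p arms share a seed, the stretch near the 5′ end with which a miRNA pairs to its targets. Its members were taken by name from a table of counts per mature miRNA. They were hsa-miR-130a-3p, hsa-miR-130a-5p, hsa-miR-130b-3p, hsa-miR-130b-5p, hsa-miR-301a-3p, hsa-miR-301a-5p, hsa-miR-301b-3p, hsa-miR-454-3p and hsa-miR-454-5p, written without the species prefix below. Of these 9 names 8 were among the 3112 miRNAs of the table, and the level of miR-130a-5p was not analysed here. Values of miR-301b-5p, the opposite arm of miR-301b-3p, are given beside them although it was not a listed member.

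The libraries are small RNA of 786O cells, an established line of human clear cell renal cell carcinoma (ccRCC). The 4 negative control (NC) libraries came from cells given a control plasmid. The 4 circSOD2-sh libraries came from cells given a plasmid for a short hairpin RNA against circSOD2, a circular RNA made from exons of the SOD2 gene. By the labels, RNA of both groups was taken 48 h after lipid transfection of these plasmids, whereas the methods of the study describe lentiviral knockdown with drug selection. The shRNA used in these libraries is not given in the sources used here, and the level of circSOD2 was not analysed here. The comparison asks which miRNAs differ once circSOD2 is targeted. Nothing in the labels says that the libraries of a group came from separate cultures, so the p-values measure the spread between these libraries, which may be technical.

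As background, a miRNA hairpin is cut into a 5p and a 3p arm, and either can be loaded into an Argonaute protein to repress transcripts that match its seed. Arms made from the same hairpin carry different seeds and so pair with different transcripts. miRNAs with the same seed share many predicted targets, so the make-up of a seed family matters as well as the level of each member.

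The mature sequences below show the shared seed of the 3p arms and the separate seeds of the 5p arms. They are from RefSeq on GRCh38.p14, written 5′ to 3′ with the seed, bases 2 to 8, in capitals. The 3p arms with the seed AGUGCAA are listed before the 5p arms.
hsa-miR-130b-3p: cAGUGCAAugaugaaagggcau
hsa-miR-301a-3p: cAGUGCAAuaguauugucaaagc
hsa-miR-301b-3p: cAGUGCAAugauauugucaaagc
hsa-miR-454-3p: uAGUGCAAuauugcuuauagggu
hsa-miR-130b-5p: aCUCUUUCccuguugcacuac
hsa-miR-301a-5p: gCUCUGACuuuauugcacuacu
hsa-miR-454-5p: aCCCUAUCaauauugucucugc
miR-130a-3p, known to share this seed, and miR-301b-5p are named only. Besides the 4 arms above, miR-3666 and miR-4295 had the seed AGUGCAA among the 2370 mature names of the sequence table, and neither was in the count table. Read from the 5′ end, miR-301a-3p and miR-301b-3p were identical at 21 of 23 bases, so their counts are uncertain where the counting could split reads between them. miR-130b-3p and miR-454-3p were identical at 10 of 22 bases.

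The hairpins lie at 3 sites (GRCh38, GENCODE release 29). MIR454 at chr17:59137758-59137872 and MIR301A at chr17:59151136-59151221, both on the minus strand, overlapped no exon of SKA2, the protein-coding gene that contains them, and are 13263 bases apart. MIR301B at chr22:21652981-21653058 and MIR130B at chr22:21653304-21653385, both on the plus strand, are 245 bases apart within the non-coding gene AP000553.1, and an exon of that gene overlaps MIR130B. MIR130A at chr11:57641198-57641286 on the plus strand lies within the non-coding gene AP000662.1 and overlaps none of its exons.

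Library totals ran from 6386872 to 9245044 counts for NC and from 3743860 to 4208276 for circSOD2-sh. Known miRNAs held 36.2%, 39.9%, 41.9% and 36.7% of the counts in NC replicates 1 to 4 and 95.1%, 96.5%, 96.3% and 95.7% in circSOD2-sh replicates 1 to 4, the rest being miRNAs predicted by the authors. The choice of denominator therefore sets the direction for the family as a whole. In CPM, counts scaled to a common total of listed counts, the 8 members summed to 430.4 to 505 in NC libraries and to 736 to 778 in circSOD2-sh libraries. As a share of known miRNA counts they came to 0.117% to 0.126% in NC libraries and to 0.0764% to 0.0806% in circSOD2-sh libraries, so the order of the groups turned. Levels below are normalized CPM, for which each library total was multiplied by the TMM factor of edgeR, and on this scale the members summed to 617 to 688 in NC libraries and to 508 to 577 in circSOD2-sh libraries. The median log2 fold change over all tested miRNAs was -0.00216 under TMM, 0.961 when library totals were used and 0.834 under upper-quartile scaling. Calls split into 298 higher and 290 lower under TMM, 613 and 158 under library totals, and 570 and 160 under upper-quartile scaling. Values relative to that median are given for members whose direction turned. A scaling moves all tested miRNAs nearly alike, so these values agree between scalings by construction, which is no sign of stability. They are given for TMM, and for known miRNAs only against the median of the 463 known miRNAs, -0.0836. Ratios within a library are given after them.

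Before the results, 2 libraries stood apart in marker miRNAs of other cell types. Neural markers, 6 in number, came to 5249 normalized CPM in circSOD2-sh replicate 2, to 476 to 494 in the rest of its group and to 522 to 560.0 among the NC libraries. Over all libraries the most abundant of them was miR-128-3p, while miR-124-3p, a defining neural miRNA, was at 3214 in that library and between 0.852 and 3.01 in the others. In NC replicate 4 the 6 stroma markers, led by miR-143-3p, summed to 749, where the rest of its group had 22.0 to 23.1, and in circSOD2-sh replicate 2 to 311, where the rest had 22.4 to 58.5. The 2 endothelium markers, led by miR-126-3p, summed to 650.1 and 511 in these libraries, and to between 262 and 348 in the others. The 3 erythroid markers, led by miR-451a, summed to 169.5 in NC replicate 4 and to 58.6 in circSOD2-sh replicate 2, against 21.6 to 42.3 elsewhere. The 4 leukocyte markers, led by miR-142-5p, summed to 17.1 and 14.6, against 1.19 to 3.21 elsewhere. Among them the defining miRNAs miR-223-3p and miR-142-3p had at most 3 counts in every library. The other listed marker, miR-150-5p, had 36 counts (6.35 normalized CPM) in circSOD2-sh replicate 2 and at most 2 counts elsewhere. The 3 muscle markers, led over all libraries by miR-1-3p, summed to 41.1 in NC replicate 4, where miR-206 led at 24.3, and to between 9.37 and 29 elsewhere. The liver marker miR-122-5p was at 3.75 to 5.82 in NC and at 1.36 to 2.49 in circSOD2-sh. None of the listed markers was at 0 in all libraries. The part of other cells in the family's values was not tested.

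These markers were also read for differences between the groups. With TMM edgeR called 2 of the 5 tested neural markers higher (40.0%, against 33.3% of all tested miRNAs), 1 of the 2 tested muscle markers higher, and the liver marker lower. The neural pair, miR-124-3p and miR-129-5p, was at 9.40 and 2.56 on the log2 scale (adjusted p = 0.0142 and 0.0135 from edgeR), and at 0.83 and 1.15 without circSOD2-sh replicate 2 (adjusted p = 0.0467 and 0.0035 from edgeR). Both were higher in circSOD2-sh under all 5 scalings, and outside that library they had 5 to 22 counts a library. Both passed the low-count filter only through circSOD2-sh, the group where they were higher, so the filter fixed the direction of any call. DESeq2 called none of the 5 and gave no adjusted p-value for 4 of them. Without circSOD2-sh replicate 2 the neural markers miR-128-3p and miR-9-5p were called lower with TMM, at -0.26 and -0.34 (adjusted p = 0.0157 and 0.0431 from edgeR). With all libraries they were at 0.17 and 2.84, not called, and with library totals at 1.13 and 3.76. Without circSOD2-sh replicate 1, 3 or 4, miR-9-5p was called higher with TMM, at 3.07, 3.03 and 3.06 (adjusted p = 0.0305, 0.0294 and 0.03 from edgeR), as was miR-9-3p. RLE scaling also called miR-9-5p higher. Library totals and upper-quartile scaling called all 5 tested neural markers higher, against 613 and 570 of all 895 tested miRNAs. The muscle marker miR-1-3p was at 6.74 to 11.5 in NC and at 8.17 to 23.8 in circSOD2-sh. Its log2 fold change of 0.80 (adjusted p = 0.046 from edgeR) was positive under all 5 scalings, but the call was lost with RLE scaling and with known miRNAs only. The call was also lost in 6 of the 8 fits that left out a library, with a log2 fold change of 0.35 without circSOD2-sh replicate 1 (adjusted p = 0.268 from edgeR). For miR-122-5p it was -1.20 with TMM (adjusted p = 0.00211 from edgeR), called in all 8 of those fits, and -0.24 with library totals and -0.36 with upper-quartile scaling, not called.
Of the 9 tested markers of endothelium, stroma, leukocytes and red cells, edgeR with TMM called 0, against 65.7% of all tested miRNAs. An unadjusted p-value under 0.05 was found for 0 of them, against 619 of all 895. DESeq2 called miR-486-5p lower and edgeR with library totals called miR-126-5p higher. Several were called once a library that stood apart was left out. Without circSOD2-sh replicate 2, miR-126-3p, miR-126-5p, miR-199b-5p and miR-486-5p were called lower, at -0.72, -0.71, -0.75 and -1.17 (adjusted p = 0.0261, 0.00384, 0.0317 and 0.0294 from edgeR), and miR-486-5p was also called without NC replicate 2. Without NC replicate 4, miR-199a-3p and miR-199a-5p were called higher, at 2.21 and 2.16 (adjusted p = 0.0203 and 0.0308 from edgeR), where with all libraries they were at -0.32 and -0.69. Without both libraries these came to 1.45 and 1.25, and miR-126-3p, miR-126-5p and miR-486-5p to -0.38, -0.55 and -0.57, all called (adjusted p from 0.00222 to 0.0339 in edgeR). With library totals and all libraries these 6 miRNAs lay between 0.07 and 0.64.

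Renal markers were read beside the label of a renal carcinoma line. The 7 renal markers summed to between 151895 and 209121 normalized CPM, led by miR-21-5p. In NC the mean was 133495 for miR-21-5p and 41998 for miR-30a-5p, and from 0.263 (miR-204-5p) to 501 (miR-192-5p) for the others. The sum of the renal markers thus rests on miR-21-5p and miR-30a-5p and cannot serve as a check of the label. Of the 6 tested, edgeR with TMM called 1 higher and 2 lower (16.7% and 33.3%, against 33.3% and 32.4% of all tested miRNAs). The higher was miR-30a-5p, at 0.25 on the log2 scale (adjusted p = 0.035 from edgeR), and of the 8 fits that left out a library only that without NC replicate 3 kept the call. RLE scaling and DESeq2 both put miR-30a-5p at 0.19 and did not call it. Without circSOD2-sh replicate 2 it was at 0.09 and without circSOD2-sh replicate 3 at 0.06 (adjusted p = 0.366 and 0.687 from edgeR). The lower were miR-210-3p, a miRNA induced by low oxygen, and miR-192-5p. miR-210-3p was at 19.9 to 27 in NC and at 13.9 to 19.8 in circSOD2-sh, a log2 fold change of -0.54 with TMM (adjusted p = 0.015 from edgeR) that was called in all 8 of those fits but was 0.43 with library totals and 0.30 with upper-quartile scaling. miR-21-5p, at -0.03, was called lower without circSOD2-sh replicate 2, at -0.23 (adjusted p = 0.0379 from edgeR), but with library totals and all libraries it was at 0.93. The tubule miRNA miR-192-5p was at 334 to 360.5 in NC replicates 1 to 3, at 952 in NC replicate 4 and at 268 to 281 in circSOD2-sh. The fold change on the log2 scale was -0.87 with TMM (adjusted p = 0.035 from edgeR) and -0.40 without NC replicate 4 (adjusted p = 0.00337 from edgeR), but 0.11 with library totals and 0.03 with upper-quartile scaling. With known miRNAs only it was -0.83 and the call was lost. Another tubule miRNA, miR-194-5p, was also highest in NC replicate 4 (92.3, against 27.6 to 30.1 in the rest of NC), whereas miR-30a-5p was lowest of NC there (39011, against 39137 to 45998). For miR-194-5p the difference of -0.92 with TMM was not called (adjusted p = 0.0618 from edgeR), and it was 0.05 with library totals. It was called in 4 of the 8 fits that left out a library, without NC replicate 1, 2 or 3 or circSOD2-sh replicate 2, at -1.13 to -1.15. Without NC replicate 4 it was -0.34, not called (adjusted p = 0.0872 from edgeR). Without both libraries that stood apart it was -0.52 and was called (adjusted p = 0.00493 from edgeR). miR-215-5p, at -0.42 with TMM and all libraries, was called lower only without circSOD2-sh replicate 3, at -0.61 (adjusted p = 0.0456 from edgeR). With library totals it was at 0.55 and was called higher. The kidney tubule miRNA miR-204-5p had 0, 1 or 4 counts in the NC libraries, 164 counts in circSOD2-sh replicate 2 and 7 to 9 counts in the rest of that group. It passed the low-count filter only where a circSOD2-sh library was left out, and only through the counts of the group where it was higher. Its calls as higher by edgeR, in all 4 fits without a single circSOD2-sh library, therefore had their direction fixed by that filter.

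The 5 epithelial markers, led by miR-200b-3p, had sums of 5081 to 5822 among NC libraries and of 4394 to 4863 normalized CPM among circSOD2-sh libraries. With TMM 4 of the 5 (80.0%, against 32.4% of all tested miRNAs) were called lower by edgeR. With library totals 3 of the 5 were called higher and 1 lower, against 613 and 158 of all 895 tested miRNAs. Upper-quartile scaling gave the same tally of markers, against 570 and 160. miR-200a-3p and miR-200b-3p, at -0.30 and -0.25 with TMM, were at 0.66 and 0.72 with library totals. With upper-quartile scaling they were at 0.55 and 0.59. miR-429, at -0.05 with TMM, was at 0.91 with library totals and was called higher. miR-141-3p was at 5.67 to 8.46 in NC replicates 1 to 3, at 25.4 in NC replicate 4 and at 1.02 to 3.38 in circSOD2-sh. By edgeR the groups differed by -2.35 with TMM (adjusted p = 0.00348), -1.73 without NC replicate 4 and -1.38 with library totals. miR-200c-3p was likewise highest in NC replicate 4 (32.6, against 8.43 to 12.1 in the rest of NC), with a log2 fold change of -1.50 that was -0.91 without that library (adjusted p = 0.0148 and 0.013 from edgeR) and -0.53 with library totals, and miR-429 was lowest of NC there (328, against 346 to 416). The part of these markers in the family's values was not tested.

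Of the 895 miRNAs tested, 65.7% were called at an adjusted p-value under 0.05 by edgeR, 33.3% higher and 32.4% lower in circSOD2-sh. All 8 members in the table passed the low-count filter, and 5 were called. miR-454-3p and miR-454-5p were higher, and miR-130a-3p, miR-130b-3p and miR-130b-5p were lower with TMM, although none of the 3 was lower with library totals or upper-quartile scaling. A share of 62.5% called is near that of all tested miRNAs. Values of the groups were fully separate for 3 of the 8 members, and for 60.3% of all tested miRNAs. In bulk RNA, fewer cells of a type and less RNA per cell cannot be told apart. The median log2 fold change of the members was -0.30, and their median absolute log2 fold change was 0.45 against 0.81 for all tested miRNAs and 0.51 for the 463 known ones.

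**Figure D1:**
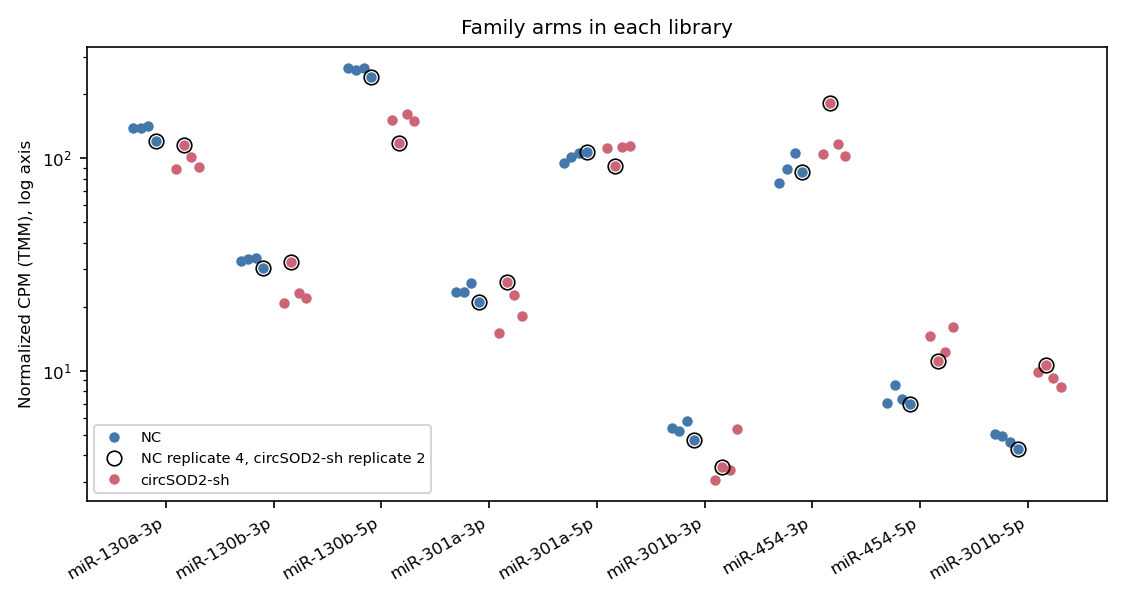
Normalized CPM (TMM, log axis) of the 8 members and miR-301b-5p in each library, as points for 4 NC and 4 circSOD2-sh libraries, with NC replicate 4 and circSOD2-sh replicate 2 ringed. The groups are separate for miR-454-5p and miR-301b-5p, higher in circSOD2-sh, and for miR-130a-3p and miR-130b-5p, lower here but at log2 fold changes of 0.52 and 0.13 with library totals.

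By mean level in NC the order was miR-130b-5p, miR-130a-3p, miR-301a-5p, miR-454-3p, miR-130b-3p, miR-301a-3p, miR-454-5p and miR-301b-3p, from 257 ± 11.5 to 5.28 ± 0.444 normalized CPM (SD, n = 4). Levels of different miRNAs also carry ligation and counting differences, which were not tested. The NC values of miR-301a-5p (102 ± 5.8) and miR-454-3p (89.1 ± 11.8) overlapped between libraries. In circSOD2-sh the order of the upper 4 became miR-130b-5p, miR-454-3p, miR-301a-5p and miR-130a-3p, at 144 ± 18.9, 126 ± 37.2, 107 ± 10.7 and 98.9 ± 11.8 (SD, n = 4), and neighbours in that order overlapped. The place of miR-454-3p rests on circSOD2-sh replicate 2, at 181, and in replicates 1 and 4 it was below miR-301a-5p. Among the 463 tested known miRNAs miR-130b-5p ranked 92 in NC and 118 in circSOD2-sh, and miR-454-3p ranked 135 and 126.

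miR-130a-3p carries the family seed and is made from its own site on chromosome 11. Its level was 139, 138, 141 and 119.7 normalized CPM in NC replicates 1 to 4 and 88.8, 115, 101 and 91.0 in circSOD2-sh replicates 1 to 4. On this scale all 4 circSOD2-sh libraries lay below all 4 NC libraries, a direction that turned with library totals, and the closest were the 2 libraries that stood apart. edgeR gave a log2 fold change of -0.44 with a standard error of 0.11 (adjusted p = 0.00629), but 0.52 with library totals and 0.39 with upper-quartile scaling. Relative to the median it was at -0.44 with TMM and at -0.31 with known miRNAs only. Leaving out both libraries that stood apart gave -0.68 with TMM (adjusted p = 7.38e-05 from edgeR).

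miR-130b-3p, the 3p arm of the chromosome 22 hairpin MIR130B, was at 32.8, 33.5, 33.9 and 30.5 normalized CPM in NC and at 20.9, 32.5, 23.1 and 22.0 in circSOD2-sh. Only circSOD2-sh replicate 2 lay within the NC range. Its log2 fold change from edgeR was -0.41 with a standard error of 0.16 (adjusted p = 0.0451), but 0.55 with library totals and 0.42 with upper-quartile scaling. Relative to the median it was at -0.41 with TMM and at -0.28 with known miRNAs only. Leaving out circSOD2-sh replicate 2 gave -0.68 with TMM (adjusted p = 0.00108 from edgeR). The call was lost without NC replicate 1, 2 or 3, at -0.45, -0.46 and -0.44 (adjusted p = 0.0591, 0.0586 and 0.0664 from edgeR), with no low-count filter (adjusted p = 0.101 from edgeR) and with a mean of at least 50 counts (adjusted p = 0.0572 from edgeR).

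miR-130b-5p, the opposite arm with a different seed, had the most counts of the family in every library but circSOD2-sh replicate 2, where miR-454-3p had 1025 and miR-130b-5p 663. It was at 266, 259, 264 and 241 normalized CPM in NC and at 151, 117, 160.2 and 149 in circSOD2-sh. On this scale, though not with library totals, all 4 circSOD2-sh libraries lay below all 4 NC libraries, with replicate 2 lowest. By edgeR it differed by -0.83 on the log2 scale with a standard error of 0.11 (adjusted p = 9.41e-05), but 0.13 with library totals and 0.02 with upper-quartile scaling, neither of them called. Relative to the median it was at -0.83 with TMM and at -0.70 with known miRNAs only.

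miR-301b-3p, made next to miR-130b, was at 5.36, 5.23, 5.79 and 4.72 normalized CPM in NC and at 3.06, 3.53, 3.41 and 5.33 in circSOD2-sh. These values rest on 17 to 35 counts a library, and circSOD2-sh replicate 4 lay within the NC range. Its difference of -0.46 on the log2 scale, which was 0.50 with library totals and 0.37 with upper-quartile scaling, was not called (edgeR, standard error 0.21, adjusted p = 0.0716). Relative to the median it was at -0.46 with TMM and at -0.33 with known miRNAs only. Leaving out circSOD2-sh replicate 4 gave -0.78 with TMM, which was called (adjusted p = 0.00798 from edgeR).
Its opposite arm miR-301b-5p was at 5.06, 4.92, 4.6 and 4.27 normalized CPM in NC and at 9.85, 10.6, 9.22 and 8.35 in circSOD2-sh. The lowest circSOD2-sh value exceeded the highest NC value. From 19 to 60 counts a library, edgeR gave a log2 fold change of 1.00 with a standard error of 0.15 (adjusted p = 0.000202), and 0.81 without both libraries that stood apart (adjusted p = 0.00711 from edgeR). It was positive under every scaling tried.

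miR-454-3p, made from an SKA2 intron on chromosome 17, was at 76.6, 88.4, 105 and 86.2 normalized CPM in NC and at 104, 181, 116 and 102 in circSOD2-sh. circSOD2-sh replicate 2 was the highest, and the groups overlapped at NC replicate 3. Its fitted difference of 0.50 on the log2 scale had a standard error of 0.19 (adjusted p = 0.0457 from edgeR) and was positive under every scaling tried. The call was lost whichever of the 8 libraries was left out, with log2 fold changes from 0.16 without circSOD2-sh replicate 2 to 0.54 without NC replicate 3 (adjusted p from 0.06 to 0.276 in edgeR). Without both libraries that stood apart it was 0.15 (adjusted p = 0.319 from edgeR), and the call was also lost with RLE scaling, at 0.43 (adjusted p = 0.0555 from edgeR), and with no low-count filter, at 0.47 (adjusted p = 0.0501 from edgeR). In circSOD2-sh replicate 2 the neural markers were at 5249 normalized CPM, and their part in the level of miR-454-3p there was not tested.
miR-454-5p was at 7.05, 8.61, 7.33 and 6.96 normalized CPM in NC and at 14.6, 11.1, 12.2 and 16 in circSOD2-sh. The groups were separate and circSOD2-sh was the higher, with replicate 2 the lowest of its group. From 31 to 90 counts a library, edgeR put the log2 fold change at 0.85 with a standard error of 0.17 (adjusted p = 0.00143). It was positive under every scaling and was called in all 8 fits that left out a library, from 0.64 to 0.85.

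miR-301a, from the same gene as miR-454, passed the test in neither arm. miR-301a-3p was at 23.4, 23.5, 25.9 and 21.1 normalized CPM in NC and at 15.1, 26.1, 22.7 and 18.1 in circSOD2-sh. circSOD2-sh replicate 2 was again the highest of its group, above every NC library. Its difference of -0.20 with TMM (edgeR, standard error 0.18, adjusted p = 0.361) was 0.76 with library totals and 0.63 with upper-quartile scaling, and without circSOD2-sh replicate 2 it was -0.45 and was called (adjusted p = 0.034 from edgeR). With all libraries it was at -0.20 with TMM and at -0.07 with known miRNAs only, relative to the median.
miR-301a-5p was at 94.4, 101, 106 and 107 normalized CPM in NC and at 111, 91.5, 113 and 114 in circSOD2-sh. Only circSOD2-sh replicate 2 lay below NC, and the other 3 lay above it. Its difference was 0.07 on the log2 scale (edgeR, standard error 0.11, adjusted p = 0.55), and between -0.10 and 0.05 when single libraries were left out. With library totals it was 1.04 and was called (adjusted p = 1.63e-05 from edgeR), close to the median shift of that scaling.

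**Figure D2:**
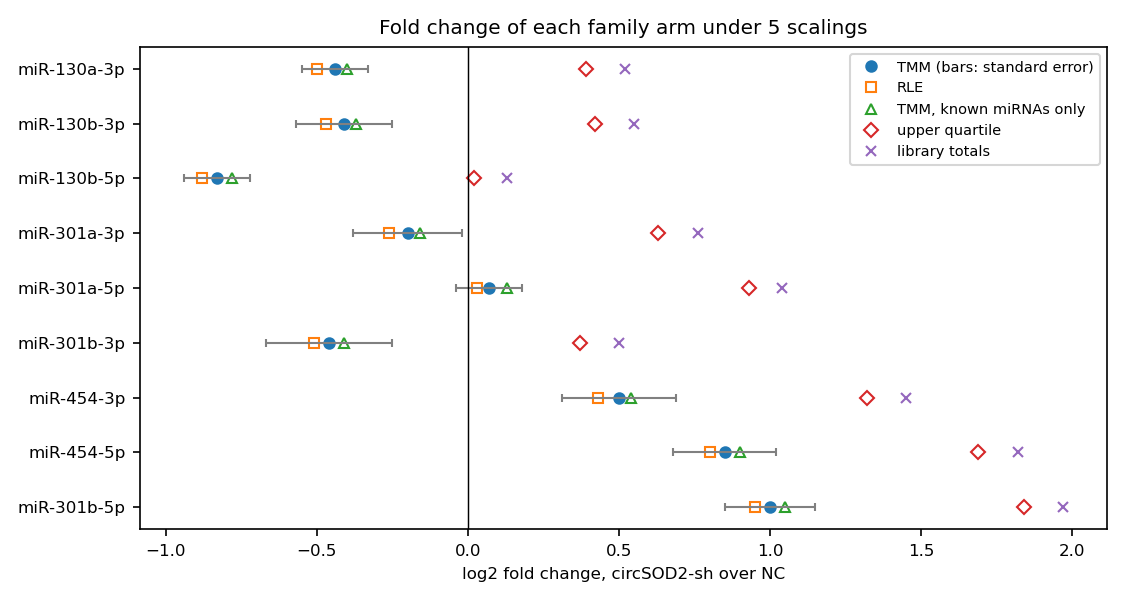
Log2 fold change of circSOD2-sh over NC for the 8 members and miR-301b-5p from edgeR under 5 scalings, with the standard error as bars for TMM. miR-130a-3p is at -0.44 with TMM and 0.52 with library totals, and a scaling shifts all arms nearly alike.

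The 3p arms of the family were then compared within each library, where no scaling enters. Their summed counts were 1807, 1878, 1830 and 1168 in NC and 1364, 2027, 1328 and 1343 in circSOD2-sh. miR-130a-3p held 50.1%, 47.8%, 45.2% and 45.6% of them in NC and 38.3%, 32.1%, 38.0% and 38.1% in circSOD2-sh. miR-454-3p held 27.7%, 30.6%, 33.7% and 32.9% in NC and 44.8%, 50.6%, 43.6% and 42.8% in circSOD2-sh. Neither pair of ranges overlapped, and the leading arm of the seed family was miR-130a-3p in every NC library and miR-454-3p in every circSOD2-sh library. The share of miR-130b-3p was 11.5 ± 0.425% in NC and 9.0 ± 0.243% in circSOD2-sh (SD, n = 4), that of miR-301a-3p was 8.24 ± 0.184% and 7.48 ± 0.82%, and that of miR-301b-3p was 1.85 ± 0.063% and 1.46 ± 0.54%. These shares were set side by side after their values were seen and carry no test. The difference between the group means was 14.2 percentage points for miR-454-3p and 13.1 without both libraries that stood apart. For miR-130a-3p it was -10.6 and -9.58 percentage points.

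**Figure D3:**
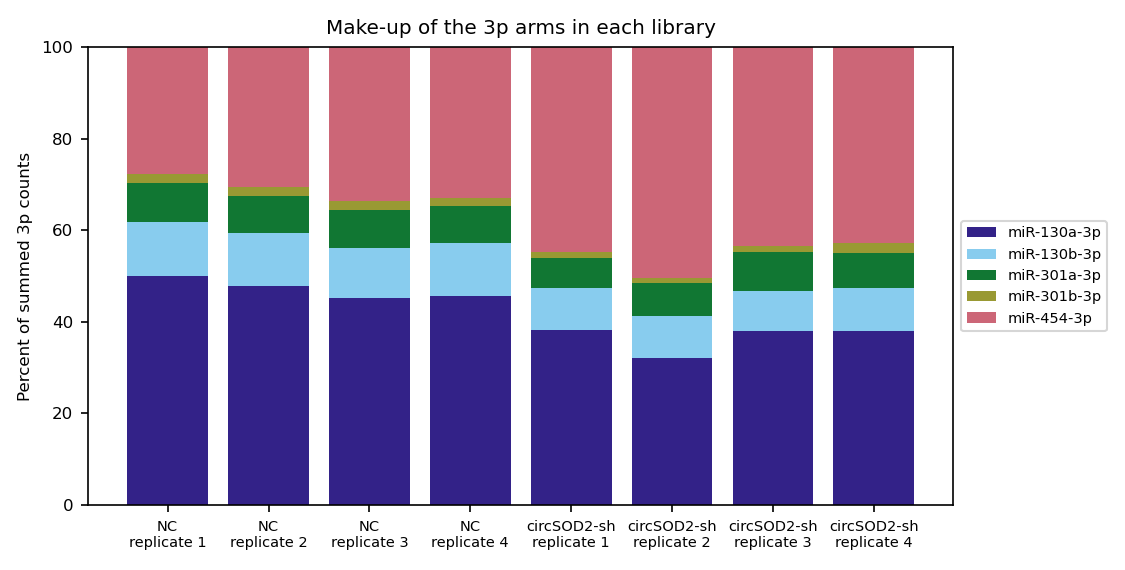
Percent of the summed counts of the 3p arms held by each arm (y axis, bars stacked to the whole) in the 4 NC and 4 circSOD2-sh libraries. miR-454-3p holds 27.7% to 33.7% in NC and 42.8% to 50.6% in circSOD2-sh.

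Summed over the 3p arms, the level was 285 ± 20.9 normalized CPM in NC and 273 ± 58.0 in circSOD2-sh (SD, n = 4). circSOD2-sh replicate 2 was highest at 358, where the rest of its group had 232 to 266. On the log2 scale the difference was -0.08 with TMM, which became -0.21 without that library and -0.25 without both libraries that stood apart. It was -0.13 with RLE and -0.03 with known miRNAs only, but 0.77 with upper-quartile scaling and 0.89 with library totals.

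Arms made at the same site were compared by the ratio of their counts. miR-454-3p exceeded miR-301a-3p by a ratio of 3.27, 3.76, 4.06 and 4.09 in NC and 6.87, 6.93, 5.12 and 5.64 in circSOD2-sh. Counts of miR-454-5p over those of miR-301a-5p gave 0.0747, 0.0855, 0.0694 and 0.0649 in NC and 0.132, 0.121, 0.108 and 0.14 in circSOD2-sh. Neither ratio overlapped between the groups. At the other site, the ratio of miR-130b-3p to miR-301b-3p was 6.21 ± 0.288 in NC and 6.73 ± 2.07 in circSOD2-sh, and the groups overlapped. The ratio of miR-130b-5p to miR-301b-5p was 52.6, 52.7, 57.3 and 56.4 in NC and 15.3, 11.1, 17.4 and 17.9 in circSOD2-sh. The 5p arms of these neighbouring hairpins thus differed by -1.85 on the log2 scale between the groups, and their 3p arms by 0.06. Without both libraries that stood apart these were -1.69 and -0.09, and without circSOD2-sh replicate 4 the difference of the 3p arms was 0.28. These ratios were chosen after their values were seen and carry no test.

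Arm use, the 5p counts of a hairpin over its 3p counts, was tested with limma over 117 hairpins, of which 58.1% were called, and 1 of the 4 family hairpins with both arms tested was among them. For miR-301b the log2 ratio was -0.08, -0.08, -0.30 and -0.13 in NC and 1.54, 1.46, 1.31 and 0.60 in circSOD2-sh. The arms were near balance in NC, and the 5p arm was ahead in every circSOD2-sh library. The change was 1.38 (standard error 0.21, adjusted p = 0.000244 from limma) and was called in all 8 fits that left out a library, from 1.26 to 1.57. Both arms had few counts, 17 to 60 a library.
For miR-130b the log2 ratio was 3.0, 2.93, 2.94 and 2.96 in NC and 2.83, 1.83, 2.77 and 2.73 in circSOD2-sh. The 5p arm was ahead in every library, and the groups did not overlap. The change of -0.42 was not called (standard error 0.22, adjusted p = 0.129 from limma), and without circSOD2-sh replicate 2 it was -0.18 (adjusted p = 0.116 from limma).
For miR-301a the log2 ratio was 1.99, 2.07, 2.01 and 2.32 in NC and 2.83, 1.79, 2.30 and 2.62 in circSOD2-sh. For miR-454, where the 3p arm was ahead in every library, it was -3.35, -3.29, -3.75 and -3.54 in NC and -2.79, -3.96, -3.20 and -2.64 in circSOD2-sh. In both hairpins circSOD2-sh replicate 2 had the lowest ratio of all 8 libraries. The changes of 0.29 and 0.34 were not called (adjusted p = 0.288 and 0.32 from limma), and without circSOD2-sh replicate 2 they were 0.48 and 0.61 and were called (adjusted p = 0.0287 and 0.0178 from limma). Without circSOD2-sh replicate 1 the change for miR-301a was 0.14, and without circSOD2-sh replicate 4 that for miR-454 was 0.17 (adjusted p = 0.628 and 0.649 from limma).

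**Figure D4:**
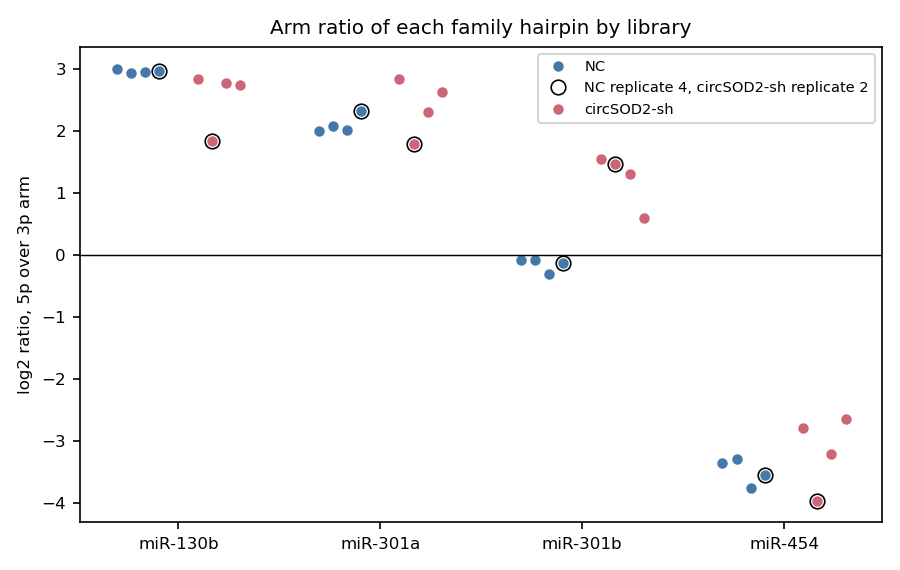
Log2 of 5p over 3p levels for the 4 family hairpins in each of 4 NC and 4 circSOD2-sh libraries, with NC replicate 4 and circSOD2-sh replicate 2 ringed and a line at equal arms. miR-301b moves from between -0.30 and -0.08 in NC to between 0.60 and 1.54 in circSOD2-sh.

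The 5p arms of miR-130b and miR-301a hold the letters UUGCACU, the complement of the family seed. miR-454-5p does not, nor does the sequence of miR-130a-5p. They were searched on the mature strand, and these letters occur in 8 of the 2370 mature names, or 0.338%.

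miRNAs with overlapping seeds were read beside the family. They are shown with their seeds in capitals because GUGCAA of the family seed lies in the seed of miR-19 and AGUGCA in that of miR-148 and miR-152.
hsa-miR-19a-3p: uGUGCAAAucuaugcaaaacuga
hsa-miR-148a-3p: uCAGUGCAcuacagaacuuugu
hsa-miR-152-3p: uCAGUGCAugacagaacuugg
Of 5 such miRNAs 1 was called with TMM (20.0%, against 65.7% of all tested miRNAs). All 5 were called higher with library totals and with upper-quartile scaling, against 613 and 570 of all 895. The 1 called with TMM was miR-148a-3p, which was at 1032, 1169, 1189 and 1349 normalized CPM in NC and at 918, 927, 993 and 954 in circSOD2-sh. By edgeR it was lower by a log2 fold change of -0.32 (adjusted p = 0.0099), which was 0.65 with library totals. The others, miR-19a-3p, miR-19b-3p, miR-148b-3p and miR-152-3p, had log2 fold changes of 0.29, 0.16, -0.24 and -0.32 (adjusted p = 0.303, 0.567, 0.0847 and 0.312 from edgeR), the last pair positive with library totals at 0.73 and 0.64. miR-148b-3p was called lower with TMM in 6 of the 8 fits that left out a library, at -0.27 to -0.48, but was higher with library totals. miR-152-3p was at 55.9 normalized CPM in NC replicate 4 and at 25.6 to 34.3 in the rest of NC, and without that library its difference was -0.06 with TMM (adjusted p = 0.785 from edgeR), against 0.64 with library totals and all libraries. miR-19a-3p and miR-19b-3p went to -0.08 and -0.22 without both libraries that stood apart. miR-148a-3p and miR-148b-3p were more abundant than any member of the family, at 1185 ± 129.7 and 2288 ± 169.5 normalized CPM in NC (SD, n = 4).

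The miRNAs whose pattern over the 8 libraries was most like that of miR-130b-5p, among the tested known miRNAs outside the family, were miR-550a-3-5p, miR-550a-5p, miR-1180-3p, miR-26b-5p and miR-181a-3p. Pearson's r of the log2 of normalized CPM plus 1 was 0.989, 0.984, 0.982, 0.979 and 0.974. These points share their libraries and the difference between the groups, so r is a description. Their log2 fold changes were -0.79, -0.78, -1.28, -0.65 and -0.79 with TMM, and with library totals all but that of miR-1180-3p were above 0.

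circSOD2 was searched for bases complementary to the seeds of the family. The only run of SOD2 exons in GENCODE release 29 whose joined ends held both circSOD2 shRNA targets listed by the study had 3 exons and 462 bases. On the strand of the transcript it held TTGCACT, the complement of seed bases 2 to 8 of the 3p arms, 0 times, and its last 6 letters, TGCACT, 1 time. Among windows of the same length at the middle of the longest transcript of 19501 protein-coding genes, 2.83% held TTGCACT and 12.4% held TGCACT. The match lies at chr6:159688206-159688211 (GRCh38, minus strand) in the coding sequence of SOD2, shown with the 6 letters in capitals.
circSOD2 match: ctcttcagccTGCACTgaagttcaat
The complement of the miR-130b-5p seed, GAAAGAG, was found 0 times. For miR-301a-5p the letters searched were GTCAGAG, with 0 matches. For miR-454-5p they were GATAGGG, also with 0 matches, and 6.58%, 3.63% and 0.79% of the windows held these letters in turn. A match of letters is a description and was not tested as a binding site.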

How the data were processed

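Small RNA of 4 NC and 4 circSOD2-sh libraries was compared. The authors deposited raw counts per mature miRNA and CPM whose denominator exceeded the sum of listed counts (CPM columns summed to between 836914 and 938987). The deposited comparison of the authors, with group means, log2 ratios, p-values, q-values and calls, was not used. The submitters' processing notes name FastQC 0.11.2, Trimmomatic 0.36, Bowtie 1.1.1 and GRCh38. The counting tool and miRNA annotation are not given in the sources used here, nor is how reads that match several miRNAs were counted.

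The main test was run on the counts of all 8 libraries in edgeR 4.0.16 under R 4.3.3 (filterByExpr with a minimum count of 10, TMM, quasi-likelihood test, prior count 0.125), with Benjamini-Hochberg adjustment over all miRNAs tested. The standard error is the absolute log2 fold change over the square root of the F statistic. Arm ratios were tested with limma 3.58.1 after adding 0.5 normalized CPM to each arm. The alternatives were DESeq2 1.42.0, RLE, library totals, upper quartile, known miRNAs only, other filters and constants, limma on log2 of the CPM plus 1 or 0.1, a replicate block, and libraries left out. The fits were tested on simulated data. A floor of 3 counts corresponds to 0.46 to 0.674 normalized CPM and covers counting error only. Libraries of a group differed beyond sampling noise in each pair (chi-square divided by its degrees of freedom, 9.45 to 128), so none was counted as deposited again.

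The members and lists were chosen with earlier results of these data known. Named miRNAs are the family, the overlapping-seed list, the 5 most like miR-130b-5p, and the markers of renal, epithelial, endothelium, stroma, leukocyte, erythroid, neural, muscle and liver cells. Tables and figures were made with Python 3.11.15, pandas 2.3.3 and matplotlib 3.10.9. Another fixed list is not reported here.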

Additional observations from a re-analysis of the deposited data

Results flagged for a closer look

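Of 76 groups of 4 libraries examined, 13 had a library far from the others by the 95% critical value of Dixon's test, where chance gives about 1 in 20, or 3.8. The library was circSOD2-sh replicate 2 in 8 of them and NC replicate 4 in 5.

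Among family values, NC replicate 4 had the lowest level of miR-130a-3p of its group, 119.7 normalized CPM where the rest had 138 to 141. In circSOD2-sh replicate 2, the level of miR-301a-5p was 91.5 normalized CPM where the rest of its group had 111 to 114, and the log2 5p to 3p ratio of miR-130b was 1.83 against 2.73 to 2.83. In the same library miR-130a-3p held 32.1% of the summed counts of the 3p arms against 38.0% to 38.3%, and the count ratio of miR-454-3p to miR-130a-3p was 1.58 against 1.12 to 1.17.

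Among the marker sums, circSOD2-sh replicate 2 was apart for neural markers (5249 normalized CPM against 476 to 494), stroma markers (311 against 22.4 to 58.5), endothelium markers (511 against 262 to 290.0) and leukocyte markers (14.6 against 2.13 to 3.21). NC replicate 4 was apart for stroma markers (749 against 22.0 to 23.1), endothelium markers (650.1 against 334 to 348), erythroid markers (169.5 against 26.7 to 42.3) and leukocyte markers (17.1 against 1.19 to 2.0). What set these libraries apart was not tested.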

How the results depend on the processing

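Most turned values came with another scaling of the libraries or with limma on the deposited CPM, which changes the test and the input as well. miRNAs called higher and lower numbered 298 and 290 with TMM, 613 and 158 with library totals, 570 and 160 with upper quartile, 559 and 163 with limma on log2 of the CPM plus 1, and 553 and 163 with CPM plus 0.1. Known miRNAs only, with fewer miRNAs tested, gave 246 calls (123 higher, 123 lower), and a mean of at least 50 counts gave 361 (149 higher). Members called higher and lower were 2 and 3 with TMM and 6 and 0 with library totals, upper quartile and both limma settings. Members called higher were 1 with RLE, with no low-count filter (3 called in all) and without both libraries that stood apart. Without single libraries, 3 to 5 members were called, 1 of them higher in each fit.

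Log2 fold changes that turned are given for library totals, upper quartile, and limma with CPM plus 1 and plus 0.1, in this order. They were 0.52, 0.39, 0.37 and 0.38 for miR-130a-3p, 0.55, 0.42, 0.38 and 0.39 for miR-130b-3p, 0.76, 0.63, 0.57 and 0.60 for miR-301a-3p, and 0.50, 0.37, 0.27 and 0.32 for miR-301b-3p. miR-130b-5p was at 0.13 and 0.02 with totals and upper quartile and at -0.02 with both limma settings. Outside the family they were 0.65, 0.53, 0.51 and 0.51 for miR-148a-3p, 0.73, 0.61, 0.58 and 0.58 for miR-148b-3p, 0.64, 0.54, 0.53 and 0.55 for miR-152-3p, 0.18, 0.06, 0.03 and 0.03 for miR-550a-3-5p, 0.19, 0.07, 0.04 and 0.04 for miR-550a-5p, 0.31, 0.20, 0.16 and 0.16 for miR-26b-5p, and 0.18, 0.05, 0.03 and 0.03 for miR-181a-3p. The cause was not tested.

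Without single libraries, miR-301a-5p lay between -0.10 and 0.05, and miR-19b-3p between -0.14 and 0.23. Without both libraries that stood apart, miR-19a-3p was at -0.08 and miR-19b-3p at -0.22. The cause was not tested. Of the values of the 8 members and miR-301b-5p under all alternatives, 131 kept their direction and side of the threshold, 18 lost the call, 7 gained it and 22 turned. For the arm ratios 48 kept both and 4 gained the call. Shares, count ratios and the summed 3p level without libraries or with other scalings, and the markers of all cell types with other scalings, with DESeq2 or without libraries, were alternatives chosen after seeing the data.

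Same-numbered libraries of the groups deviated together with r = 0.26, -0.0994, 0.0965 and -0.174 over 895 miRNAs. Libraries with different numbers had r from -0.241 to 0.264. The main test did not pair them by number, and with 4 libraries a group these values cannot exclude a shared batch. With the replicate block 574 miRNAs were called, 296 higher and 278 lower, and 5 members. The members with the fewest counts were miR-301b-3p (17 to 35 a library), miR-454-5p (31 to 90) and miR-301a-3p (89 to 153), and what this depth limits was not tested.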
